A study of Homo sapiens with 11 samples.

Results

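The MYC, MAX and MXD network is described here by 10 genes: MYC, MAX, MXD1, MXD3, MXD4, MXI1, MNT, MLX, MLXIP and MGA. They were chosen by name, with earlier results of these data known. All 10 were listed among the 14458 genes of the knockdown table and 9 among the 11062 genes of the overexpression table; MXD4 was not analysed in the second. The values are RNA-seq abundances from 11 libraries of ARP1, an established human IgA kappa myeloma line. The groups were PHF19 shRNA (n = 3) against scramble (n = 3), and PHF19 overexpression from a lentiviral PCDH plasmid (OE, n = 2) against the empty PCDH vector (EV, n = 3). PHF19 joins Polycomb repressive complex 2 as a Polycomb-like accessory protein that reads methylated histone H3. OE cells were sorted ahead of RNA preparation; sorting of EV cells is not stated. The labels of the shRNA and scramble libraries repeat the overexpression wording, so how the hairpin was delivered, and whether the 3 libraries carry the same hairpin, is unknown. Separate cultures are not stated for any group, so p-values measure the spread between these libraries, which may be technical.

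MYC is a basic helix-loop-helix leucine zipper transcription factor that binds DNA as a heterodimer with MAX at E-box sequences and raises transcription of genes for growth, ribosome production and metabolism. The MXD proteins, MXI1, MNT and MGA compete for MAX and repress transcription, the MXD proteins, MXI1 and MNT through SIN3 and histone deacetylases and MGA as part of a variant Polycomb complex, PRC1.6. MLX pairs with MLXIP, also called MondoA, which responds to glucose, and can also pair with some MXD proteins and MNT. In multiple myeloma MYC is often activated by rearrangement and is sustained by the plasma cell factor IRF4.

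PHF19 itself was at 75.2, 103 and 107.7 in shRNA libraries, against 113, 152 and 123 in scramble libraries. These groups did not overlap, but limma's adjusted p was 0.147, and 0.0445 in the fit that pairs equal replicate numbers, called the replicate block below. No label ties these numbers to a shared batch, and the pairing was taken from these same data. In the other arm PHF19 was at 227 and 213 in OE libraries, against 111, 119 and 115 in EV libraries (limma adjusted p = 0.0438), a call that ended when OE replicate 1 or 2 or EV replicate 3 or 4 was left out (adjusted p up to 0.264). Plasma cell markers summed to 1572 to 2019 in shRNA libraries and 1985 to 2206 in scramble libraries, with 11 of 14 markers listed. In the other table they summed to 11554 and 4386 in OE libraries and 2721, 3036 and 3559 in EV libraries. Of these sums the joining chain gene IGJ made 9837 and 2623 in OE libraries and 1686, 1939 and 1700.1 in EV libraries. Without it they were 1717 and 1763 in OE libraries and 1035, 1097 and 1859 in EV libraries, so the groups overlapped, and MZB1 and TNFRSF17 were listed at 0 in EV replicates 3 and 4. The summed markers of any other cell type checked were at most 14.6 in the knockdown table and 12.9 in the overexpression table. Those of monocytes summed to 2.37 to 3.29 in shRNA and 4.64 to 5.97 in scramble libraries, those of erythroid cells to 3.21 to 4.50 and 6.35 to 10.2, and those of epithelial cells to 5.61 to 7.19 and 9.82 to 14.6. Markers that passed limma as lower were epithelial KRT18 (adjusted p = 0.0137), monocyte CD68 (adjusted p = 0.0267) and erythroid HBA1 (adjusted p = 0.0292). No marker passed as higher. Of 11 plasma cell markers tested in this arm 10 had a negative log2 fold change, where 45.6% of all genes did. Their median was -0.25, with 0 calls. In the overexpression arm monocyte markers summed to 0.396 to 12.3 in OE and 0 to 0.0572 in EV libraries, and erythroid markers to 3.09 to 12.9 and 0 to 0.755. The part of these marker differences in the results was not tested. In bulk RNA, fewer cells of a type and less RNA per cell cannot be told apart. Among the 6 knockdown libraries shRNA replicate 1 stood apart, correlating with the others at 0.953 to 0.973 across genes. For some of the results that rest on it, a value without it is also given. The 5 overexpression libraries agreed less, correlating with one another at 0.760 to 0.831.

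MYC was by far the most abundant network transcript in each group. Values are taken here to be of FPKM type, normalised for gene length and depth, although their unit is not stated. Setting levels side by side between genes of a table, and the ratios between genes, rest on that assumption. In scramble libraries the order of the means was MYC (247), MLX (47.2), MXD4 (23.9), MAX (19.1), MLXIP (10.4), MXD3 (10.2), MXI1 (6.57), MNT (5.81), MGA (5.65) and MXD1 (2.07). Library ranges overlapped between the neighbours MLXIP and MXD3, MXI1 and MNT, and MNT and MGA, and were apart for the other neighbours. In shRNA libraries MXD3 stood above MAX and MLXIP, and its lowest library (19.5) exceeded the highest library of MAX (18.2). EV libraries also had MYC first, with a mean of 187, then MLX, and MXD1 was the lowest gene in which no library was listed at 0. MYC transcripts exceeded MAX transcripts 8.82-, 11.9- and 11.2-fold in shRNA libraries, against 13.5-, 12.1- and 13.3-fold in scramble libraries. The highest shRNA ratio lay just under the lowest scramble ratio.

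The DNA element bound by MYC, MAX and their partners is the E-box, for which the letters CACGTG were searched. The sequence is its own reverse complement, so 1 search covers both strands. RefSeq promoters of build GRCh38.p14, from 250 bases before to 50 bases after the gene start, were matched by symbol, while the authors' abundances were made on hg19. CACGTG occurred in 2030 of 27305 promoters (7.44%), and in 10.7% of the promoters of genes tested in the knockdown arm. Of the 9 network promoters matched it occurred in 3, those of MXD4, MNT and MLX. The 3 are shown because the network's own element lies in them, and MXD3 because it was the network gene that passed the test. WDR43 is shown as a lower MYC target with a match. The other MYC targets that passed as lower, NCL, BRIX1 and NOP16, had no match. DNPH1, a MYC target with a positive log2 fold change, had a match, so WDR43 does not tie the element to lower transcripts. MXD3 is at chr5:177312703-177313002 (minus strand), MXD4 at chr4:2262060-2262359 (minus), MNT at chr17:2401011-2401310 (minus), MLX at chr17:42566850-42567149 (plus) and WDR43 at chr2:28894417-28894716 (plus). Each is written 5′ to 3′ on the gene's strand, with CACGTG in capitals.
MXD3: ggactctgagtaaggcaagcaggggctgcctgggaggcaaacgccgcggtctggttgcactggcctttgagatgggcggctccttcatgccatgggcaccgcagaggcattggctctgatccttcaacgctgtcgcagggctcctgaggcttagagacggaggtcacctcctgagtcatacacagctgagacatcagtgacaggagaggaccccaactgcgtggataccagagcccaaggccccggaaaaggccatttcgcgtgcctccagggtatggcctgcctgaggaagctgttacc
MXD4: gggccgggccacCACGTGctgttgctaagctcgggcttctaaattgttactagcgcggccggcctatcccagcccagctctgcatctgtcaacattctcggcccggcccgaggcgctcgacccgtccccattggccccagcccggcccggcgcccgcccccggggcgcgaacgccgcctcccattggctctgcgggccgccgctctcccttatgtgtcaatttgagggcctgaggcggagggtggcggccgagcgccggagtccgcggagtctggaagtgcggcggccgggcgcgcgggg
MNT: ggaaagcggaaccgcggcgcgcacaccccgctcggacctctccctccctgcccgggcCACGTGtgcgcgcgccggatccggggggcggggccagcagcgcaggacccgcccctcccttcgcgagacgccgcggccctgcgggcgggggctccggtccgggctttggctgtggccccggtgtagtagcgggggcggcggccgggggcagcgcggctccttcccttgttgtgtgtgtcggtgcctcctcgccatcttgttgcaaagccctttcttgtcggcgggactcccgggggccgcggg
MLX: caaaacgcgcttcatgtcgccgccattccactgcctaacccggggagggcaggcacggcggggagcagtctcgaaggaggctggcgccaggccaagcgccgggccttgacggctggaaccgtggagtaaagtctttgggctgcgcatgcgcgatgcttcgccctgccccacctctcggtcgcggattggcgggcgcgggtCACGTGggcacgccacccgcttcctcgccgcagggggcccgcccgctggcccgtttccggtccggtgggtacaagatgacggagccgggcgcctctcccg
WDR43: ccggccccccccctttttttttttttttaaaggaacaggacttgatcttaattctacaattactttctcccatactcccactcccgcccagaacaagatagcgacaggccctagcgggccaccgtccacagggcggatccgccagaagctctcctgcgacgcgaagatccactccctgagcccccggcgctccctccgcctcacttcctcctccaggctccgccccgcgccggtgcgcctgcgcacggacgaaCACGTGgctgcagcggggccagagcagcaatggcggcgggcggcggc
The match began 238 bases before the start of MXD4, 193 before that of MNT and 50 before that of MLX, and at base 4 of the WDR43 transcript. The 300 bases of MXD3 hold no CACGTG, which says nothing of whether a network protein binds there.

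The first question was how network transcripts stand in PHF19 shRNA cells relative to scramble cells. MXD3 was the network gene that rose, to about 2-fold its scramble level, while MYC was lower in each shRNA library than in any scramble library without passing the test. MXI1 was higher, and MAX and MLX lower, in each shRNA library, also without passing. Over all genes 5.51% passed (601 of 10900 tested), 462 higher and 139 lower, or 377 and 206 after quantile normalisation. Of the 10 network genes 1 passed, a count that so small a set can give at that background. An unadjusted p under 0.05 was reached by 3, where 24.1% of all genes reached it. Groups did not overlap for 5 of the 10, 2 higher and 3 lower, where 32% of all genes tested did not overlap, 18.9% higher and 13% lower. The median log2 fold change was 0.12 over the network and 0.03 over all genes tested.

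MXD3 is a repressor of the MXD family that is expressed in cycling cells. Its abundance was 21.4, 20.4 and 19.5 in shRNA replicates 1, 2 and 3, against 8.14, 11.9 and 10.5 in scramble replicates 1, 2 and 3. The 3 shRNA values lay close together, and the lowest was well above the highest scramble value. The means were 20.4 ± 0.971 in shRNA and 10.2 ± 1.88 in scramble libraries (SD, n = 3 each), a log2 fold change of 0.95 on the log2(value + 1) scale (SE 0.15, limma adjusted p = 0.0143). It still passed without shRNA replicate 1 (adjusted p = 0.0115), and missed the threshold without scramble replicate 1 (0.82, adjusted p = 0.0509). MXD3 overlaps PRELID1 in the RefSeq annotation, and whether counting used strand is not given, so reads of the pair cannot be told apart. PRELID1 was at 264 to 374 in shRNA libraries and 400.1 to 455 in scramble libraries (log2 fold change -0.37, limma adjusted p = 0.194), the opposite direction.

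**Figure D1:**
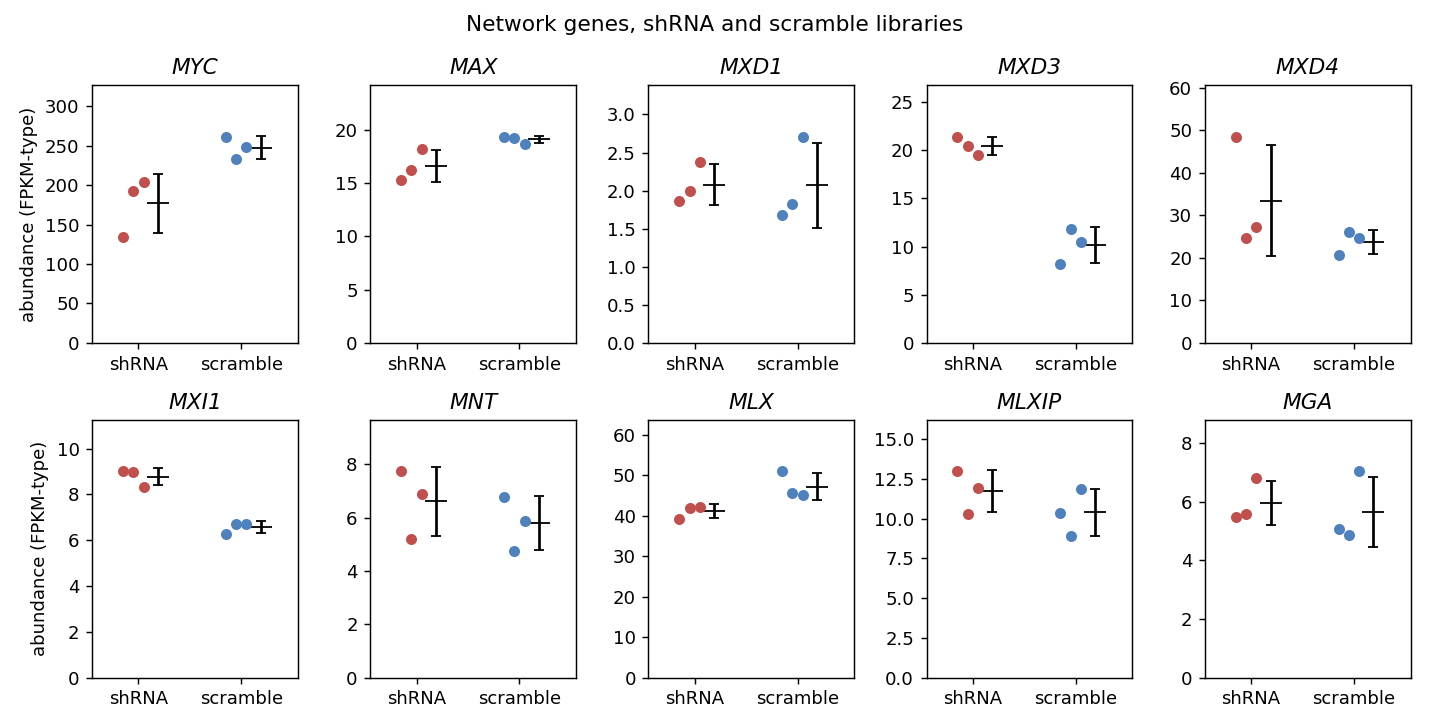
Abundance (FPKM-type, vertical axis from 0) of the 10 network genes in shRNA libraries (red) and scramble libraries (blue). Points are libraries and black bars give mean ± SD (n = 3 each); the 3 MXD3 values of shRNA libraries, 19.5 to 21.4, lie above the scramble values, and the MXD4 mean is raised by shRNA replicate 1 at 48.6.

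MYC, the activator of the network, was at 134, 193 and 204 in shRNA replicates 1, 2 and 3, against 262, 233 and 248 in scramble replicates 1, 2 and 3. The groups did not overlap, with shRNA replicate 1 the lowest library by a wide margin. The means were 177 ± 37.3 in shRNA and 247 ± 14.5 in scramble libraries (SD, n = 3 each). The log2 fold change was -0.50 (95% interval -0.87 to -0.13, limma adjusted p = 0.103), and -0.32 without shRNA replicate 1 (adjusted p = 0.138). In the authors' deposited table the p for MYC was 2.72e-189, from a test that is not stated, and 9 of the 10 network genes had a p under 0.05 there, where 61.2% of all listed genes did.

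MAX, the obligate partner, was at 15.2, 16.3 and 18.2 in shRNA libraries, against 19.4, 19.2 and 18.7 in scramble libraries. Each shRNA value lay below each scramble value, though the nearest were close. The log2 fold change was -0.20 (95% interval -0.47 to 0.08, limma adjusted p = 0.363). MLX, the partner of MLXIP, had a similar small difference, with 39.1, 42.0 and 42.3 in shRNA libraries against 51.0, 45.5 and 45.1 in scramble libraries (-0.19, limma adjusted p = 0.330). Both overlap other genes in the RefSeq annotation, and a pair of these had log2 fold changes of the same sign as their network gene. FNTB, which overlaps MAX, was at 1.28 to 1.75 in shRNA and 1.66 to 4.84 in scramble libraries (-0.81, limma adjusted p = 0.109, and 0.0390 with the block). PSMC3IP, which overlaps MLX, was at 15.1 to 30.2 in shRNA and 27.3 to 34.5 in scramble libraries (-0.38, limma adjusted p = 0.350). Reads of these pairs cannot be told apart. MAX also overlaps the read-through gene CHURC1-FNTB, which had a positive log2 fold change (0.60, limma adjusted p = 0.429).

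Among the other repressors MXI1, a MAX partner of the MXD family, was at 9.01, 9.0 and 8.33 in shRNA libraries, against 6.28, 6.71 and 6.73 in scramble libraries. The groups did not overlap and both were tight, but the log2 fold change of 0.37 (95% interval 0.08 to 0.66) did not pass over all genes (limma adjusted p = 0.125). MXD4, another member of the family, was at 48.6, 24.6 and 27.4 in shRNA libraries, against 20.7, 26.2 and 24.7 in scramble libraries. The high mean of the shRNA group came from replicate 1, as the other shRNA libraries lay within or just above the scramble range. Its log2 fold change was 0.42 (limma adjusted p = 0.295) and 0.12 without that library (adjusted p = 0.637).

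MNT, MGA, MXD1 and MLXIP showed overlapping groups and adjusted p of 0.542 to 0.963. MNT, a MAX partner present in resting and growing cells, was at 5.21 to 7.74 in shRNA and 4.75 to 6.79 in scramble libraries, and MGA at 5.47 to 6.81 and 4.85 to 7.03. The lowest transcript of the network, MXD1, was at 1.86 to 2.38 in shRNA and 1.68 to 2.71 in scramble libraries. MLXIP was at 10.3 to 13.0 in shRNA and 8.93 to 11.9 in scramble libraries. The 95% intervals reached from -0.37 to 0.41 for MXD1 and from -0.30 to 0.45 for MGA on the log2 scale, and the signs of these 2 turned under quantile normalisation.

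Summed over MXD1, MXD3, MXD4, MXI1, MNT and MGA, the repressor transcripts came to 94.1, 66.8 and 71.2 in shRNA libraries, against 48.6, 56.2 and 57.5 in scramble libraries. MYC transcripts were 1.43, 2.89 and 2.86 times this sum in shRNA libraries and 5.38, 4.14 and 4.31 times it in scramble libraries. The ratios of the groups were thus apart, with shRNA replicate 1 the lowest. The sum includes MXD3, which passed by itself, and MXD4, which was at 48.6 in shRNA replicate 1. It is therefore no result apart from these genes and does not show that the repressors rose as a group. A sum without MXD3 was not made. Transcript ratios do not give protein ratios, and no test was made of this sum.

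**Figure D2:**
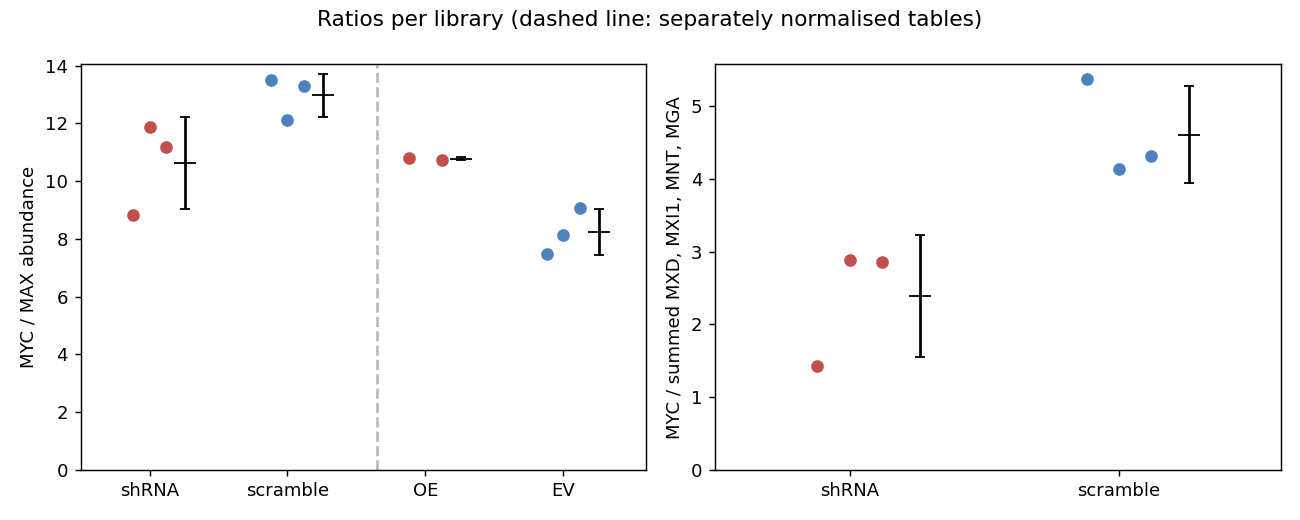
Left, the ratio of MYC to MAX abundance per library in shRNA, scramble, OE and EV libraries, with a dashed line between the separately normalised tables. Right, the ratio of MYC to the summed repressors in the knockdown table, 1.43 to 2.89 in shRNA and 4.14 to 5.38 in scramble libraries; points are libraries and black bars mean ± SD.

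The transcripts most like MYC across the 6 knockdown libraries, out of 10519 genes compared, were HMGA1, VOPP1, MSH6, UTP4 and MCM2. Likeness was the root mean square difference of log2 values after each gene was centred on its own mean. It was 0.0373 for HMGA1, a chromatin architectural protein, and 0.0464 for MCM2, a subunit of the replicative helicase, against a median of 0.365 over all genes compared. HMGA1 was at 311, 471 and 497 in shRNA libraries and at 612, 579 and 589 in scramble libraries, again lowest in shRNA replicate 1. UTP4 acts in ribosomal RNA processing and MSH6 in DNA mismatch repair. These profiles are a description over libraries that share a treatment, with no test. Likeness was not computed without shRNA replicate 1.

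Transcripts from a list of 50 MYC-induced genes were mostly lower in shRNA libraries. Of 49 tested, 43 had a negative log2 fold change, where 45.6% of all genes did, and the median was -0.39 against 0.03 over all genes. Over all genes 4 of them passed as lower (background 1.28%) and 1 as higher (background 4.24%). With the replicate block 10 passed as lower and 3 as higher. Of all 10900 genes tested, 401 passed as lower and 894 as higher with the block (11.9% in either direction). The 4 lower calls became 0 with no low-value filter and without shRNA replicate 3, scramble replicate 1 or scramble replicate 2. They became 2 without shRNA replicate 2 or scramble replicate 3, and the median was -0.23 without shRNA replicate 1. The list was chosen with earlier results of these data known, which limits what its direction can show. Nucleolin, NCL, was at 291, 383 and 374 in shRNA libraries, against 590, 528 and 531 in scramble libraries (log2 fold change -0.66, limma adjusted p = 0.0324). The other lower members that passed were BRIX1, NOP16 and WDR43, all of which act in ribosome assembly or ribosomal RNA synthesis. BRIX1 was at 37.0, 57.2 and 49.4 in shRNA libraries, against 76.8, 79.8 and 70.9 in scramble libraries (-0.67, limma adjusted p = 0.0403).

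NOP16 was at 50.3, 63.3 and 53.5 in shRNA libraries and at 107.6, 87.0 and 74.3 in scramble libraries (-0.67, limma adjusted p = 0.0388). WDR43, whose promoter is printed above, was at 31.1, 38.4 and 39.1 in shRNA libraries and at 60.8, 53.6 and 52.5 in scramble libraries (-0.61, limma adjusted p = 0.0303). These 4 calls were lost when some single libraries were left out: BRIX1 passed in 2 of 6 such fits, NCL and WDR43 in 1 and NOP16 in 0, with adjusted p up to 0.151. The higher member was SHMT2, a mitochondrial serine enzyme that MYC and ATF4 both induce, at 345, 432 and 454 in shRNA libraries, against 189, 212 and 204 in scramble libraries (1.01, limma adjusted p = 0.00856). It was 1 of 6 members of the list with a positive log2 fold change and passed in 5 of 6 such fits, missing without scramble replicate 1 (adjusted p = 0.0520). LDHA, lactate dehydrogenase A, passed as lower with the replicate block (-0.72, adjusted p = 0.0176, against 0.0536 without it) and SLC1A5, a glutamine transporter, as higher (0.56, adjusted p = 0.0213, against 0.148). DNPH1, a nucleotide hydrolase, also passed as higher with the block (0.42, adjusted p = 0.0499, against 0.139). These 3 were picked after their values were seen. CACGTG occurred in 16 of the 38 promoters of this list that were matched (42.1%), a description of the list that the fold changes do not enter. The windows of HSPD1 and HSPE1 overlap on opposite strands, and the same match is counted for both.

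None of the listed coactivator, turnover, corepressor and PRC1.6 genes passed limma in the knockdown arm, where 5.51% of all genes did. Of 16 MYC coactivators 8 had positive and 8 negative log2 fold changes, and the median log2 fold change was -0.00; RUVBL1, an ATPase of the TIP60 complex, was at 74.9 to 97.5 in shRNA and 101 to 123 in scramble libraries without passing (limma adjusted p = 0.215). The 16 listed genes of MYC turnover divided evenly too, and none passed limma's test, with USP28, a deubiquitinase that stabilises MYC, at an adjusted p of 0.407. That division moved with the processing: 12 were negative after median-of-ratios scaling, 6 without shRNA replicate 1 and 13 without shRNA replicate 3. SIN3 and histone deacetylase subunits, through which the MXD proteins repress, had 13 negative log2 fold changes among 16, where 45.6% of all genes were below 0, and a median of -0.15. The groups were apart and lower for 6 of these 16, where 13% of all genes were, and 0 passed limma with or without the block. SIN3B itself was at 15.0 to 15.7 in shRNA and 11.1 to 14.8 in scramble libraries (0.28, limma adjusted p = 0.258). Partners of MGA in PRC1.6 had 10 negative log2 fold changes among 13, a median of -0.08 and 0 calls, CBX3 among them (-0.28, limma adjusted p = 0.328). Without shRNA replicate 1 that median was -0.01, and without scramble replicate 2 the negative ones were 7.

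Listed MYC-repressed genes had 8 positive and 6 negative log2 fold changes among 14 tested, with 0 calls by limma; quantile normalisation turned this to 8 negative. With the replicate block KLF2, a transcription factor of quiescent lymphocytes, passed as lower (-1.32, adjusted p = 0.00726, against 0.472). It was at 1.80, 17.0 and 17.0 in shRNA replicates 1, 2 and 3, against 9.53, 35.4 and 36.0 in scramble replicates 1, 2 and 3. The groups overlapped, each shRNA library was below the scramble library of the same number, and without shRNA replicate 1 the log2 fold change was -0.43. NDRG1, a stress-responsive gene, also passed as lower with the block (-0.75, adjusted p = 0.0151, against 0.0510) and the integrin ITGAL as higher (0.75, adjusted p = 0.0135, against 0.180). TXNIP, the classical target of MLXIP and an inhibitor of thioredoxin and glucose uptake, was at 11.9, 9.71 and 8.67 in shRNA libraries, against 15.7, 13.3 and 14.1 in scramble libraries. The groups did not overlap, and the log2 fold change of -0.48 had a limma adjusted p of 0.0357 with the block and 0.0917 without it. ARRDC4, the other listed MLXIP target, was not analysed. Of 12 listed regulators of MYC transcription 0 passed limma; CDK8, a Mediator kinase, was at 7.40 to 10.9 in shRNA and 13.0 to 13.9 in scramble libraries (-0.45, adjusted p = 0.117). MYCN, MYCL and MLXIPL were too low to be tested, with MYCN means of 0.767 in shRNA and 0.983 in scramble libraries.

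The second question was how the same transcripts stand in OE cells relative to EV cells. MYC was higher in both OE libraries than in any EV library, and MGA and MLX were lower, but none of the 8 network genes tested passed limma's test over all genes, where 0.914% of 10279 genes did, 0.613% higher and 0.302% lower. The balance of those calls turned with the processing: 67.0% of them were higher, but 33.8% without OE replicate 1, 41.2% without OE replicate 2 and 47.2% with a filter at 5. An unadjusted p under 0.05 was reached by 2 of the 8, MYC and MGA, where 11.5% of all genes reached it. Groups did not overlap for 3 of the 8, 1 higher and 2 lower, where 34.2% of all genes did not, 23.1% higher and 11.1% lower. The log2 fold change was below 0 for 5 of the 8, where 40.1% of all genes were below 0; quantile normalisation moved the median of all genes from 0.09 to -0.04. The sample descriptions end in F for OE and in S for EV libraries, so whatever these letters mark, and sorting, cannot be told apart from PHF19. Of the genes of this arm 19.2% were listed at exactly 0 in at least 1 library, and without them 0 genes passed limma (1201 at an unadjusted p under 0.05).

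MYC was at 237 and 252 in OE libraries, against 182, 198 and 182 in EV libraries. The lower OE library stood well above the highest EV library. The means were 245 ± 10.8 in OE (SD, n = 2) and 187 ± 9.25 in EV libraries (SD, n = 3), with a log2 fold change of 0.38 (95% interval 0.12 to 0.64, limma adjusted p = 0.326). MAX was at 21.9 and 23.5 in OE libraries, within the EV values of 24.4, 24.4 and 20.1. The ratio of MYC to MAX was thus 10.8 and 10.7 in OE libraries, against 7.47, 8.14 and 9.06 in EV libraries.

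MGA, the scaffold of PRC1.6, was at 4.34 and 3.99 in OE libraries, against 7.38, 8.06 and 5.63 in EV libraries. Both OE values lay below each EV value, with a log2 fold change of -0.62 (95% interval -1.14 to -0.11, limma adjusted p = 0.381). In the authors' deposited table MGA was the network gene with a p under 0.05 (0.000366), where 12.9% of listed genes had one. MLX was at 32.5 and 37.1 in OE libraries, against 88.9, 39.4 and 65.5 in EV libraries, so that the EV libraries differed among themselves more than EV replicate 4 did from OE (-0.80, limma adjusted p = 0.507). PSMC3IP, which overlaps it, had a log2 fold change of the other sign here (0.32, limma adjusted p = 0.724).

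MXI1 was at 21.3 and 29.7 in OE libraries, against 9.89, 10.3 and 23.6 in EV libraries. EV replicate 5 lay inside the OE range and the other EV libraries far below it, and the log2 fold change was 0.86 (limma adjusted p = 0.539). MXD3 was listed at 0 in both OE libraries and at 16.4, 0 and 0 in EV libraries, and was not tested. An exact 0 can be a failed estimate, since NPM1, an abundant nucleolar protein gene, was also listed at 0 in OE replicate 2 and at 1428 in OE replicate 1. MNT, MLXIP and MXD1 had overlapping groups, with OE libraries at 7.14 to 7.67, 9.08 to 9.44 and 2.18 to 2.25, and EV libraries at 5.85 to 7.54, 9.44 to 11.9 and 1.93 to 3.64.

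**Figure D3:**
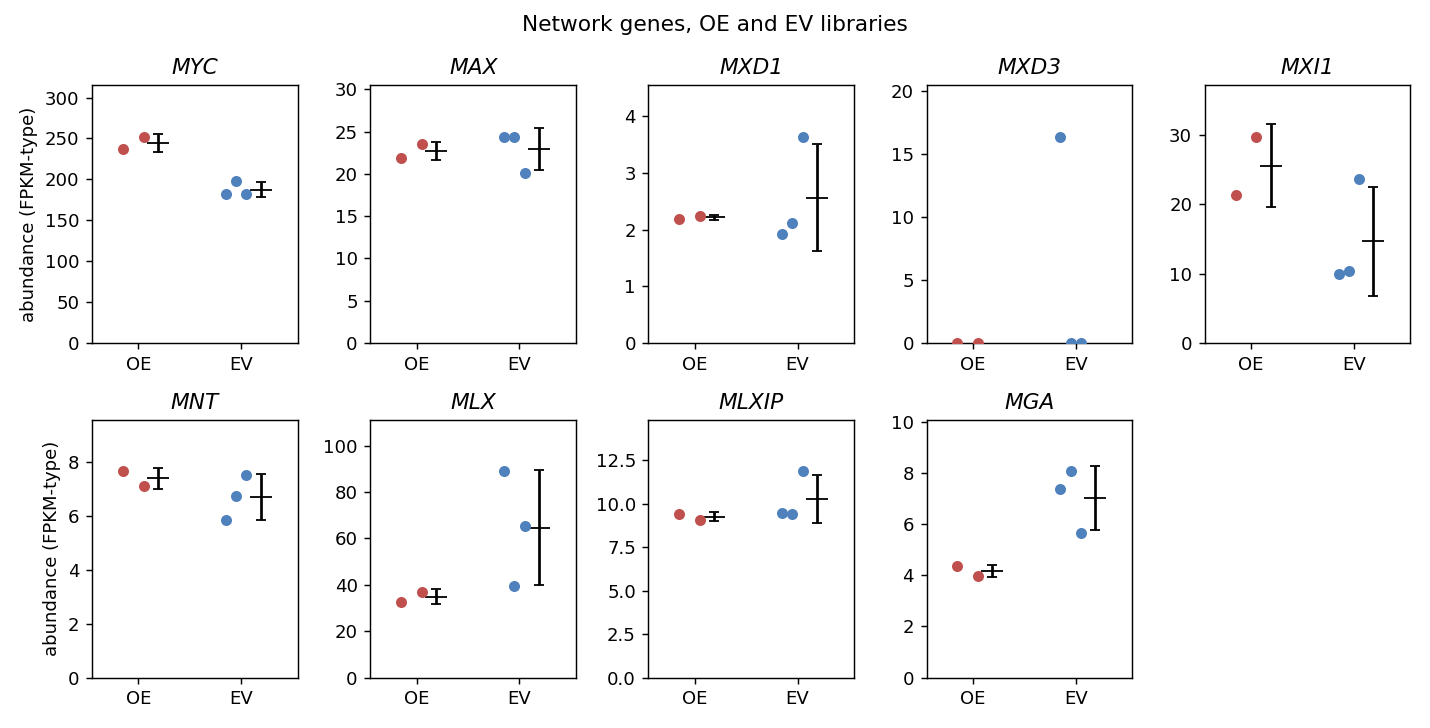
Abundance (FPKM-type, vertical axis from 0) of the 9 network genes listed in the overexpression table, in OE libraries (red, n = 2) and EV libraries (blue, n = 3). Points are libraries and black bars mean ± SD, left out for MXD3, which is listed at 0 in 4 libraries; both MYC values of OE libraries, 237 and 252, lie above the EV values.

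**Figure D4:**
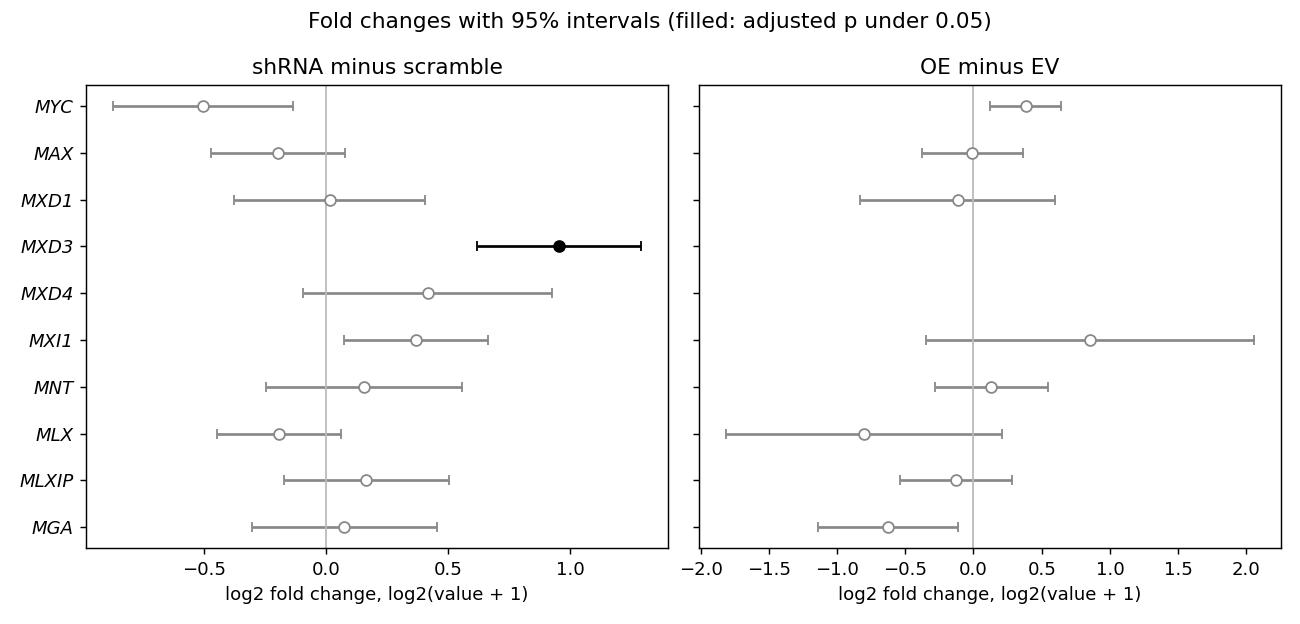
Log2 fold changes on the log2(value + 1) scale with 95% intervals for the network genes, shRNA minus scramble on the left and OE minus EV on the right. Filled points passed limma's test over all genes: MXD3 at 0.95 in the knockdown arm and no gene in the other.

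Around the network, HUWE1, a ubiquitin ligase that targets MYC among other proteins, was at 18.3 and 18.9 in OE libraries, against 38.1, 38.0 and 37.9 in EV libraries (-0.99, limma adjusted p = 0.0344). The values within each group differed by little. The call ended when genes listed at 0 were left out (limma adjusted p = 0.139), with a filter at 5, and without limma's trend and robust variances. It also ended when OE replicate 1 or 2 or EV replicate 3 or 4 was left out. Of 40 MYC-induced genes tested 20 were higher and 20 lower, or 25 lower after quantile normalisation. The lower ones were 11 of 40 without EV replicate 3, 12 of 39 without EV replicate 4 and 24 of 39 without EV replicate 5. In the main fit 1 passed, WDR43. It was listed at 42.3 and 45.1 in OE libraries and at 0 in the 3 EV libraries, from which no fold is given. Among the 28 with no 0 in any library the median log2 fold change was 0.01, against 0.07 over all genes without a 0. MYC-repressed genes had 11 positive log2 fold changes among 13, or 7 after quantile normalisation, a median of 0.52 and 0 calls by limma, beside 40.1% of all genes below 0 and a median of 0.09 over all genes. The list's median was 0.11 without OE replicate 2, 0.32 without EV replicate 4 and 0.76 without EV replicate 5. CDKN1A, the p21 cell cycle inhibitor, was at 11.9 and 11.04 in OE libraries, against 2.45, 4.66 and 9.90 in EV libraries (limma adjusted p = 0.526). BPTF, a chromatin remodelling subunit bound by MYC, was at 7.04 and 7.69 in OE libraries, against 12.6, 11.4 and 10.9 in EV libraries (-0.60, limma adjusted p = 0.293). IRF4, the plasma cell factor that sustains MYC, was at 261 and 248 in OE libraries, against 190.4, 238 and 196 in EV libraries, apart but not past the test (0.30, limma adjusted p = 0.502). In the knockdown arm IRF4 was at 117, 153 and 157 in shRNA libraries, against 218, 129 and 167 in scramble libraries, and the groups overlapped. The transcripts most like MYC over the 5 libraries of this arm were GAS2L1, PIGC, PPARD, MED15 and WIPF2, with differences of 0.0207 to 0.0301 against a median of 0.302 over 9643 genes.

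**Figure D5:**
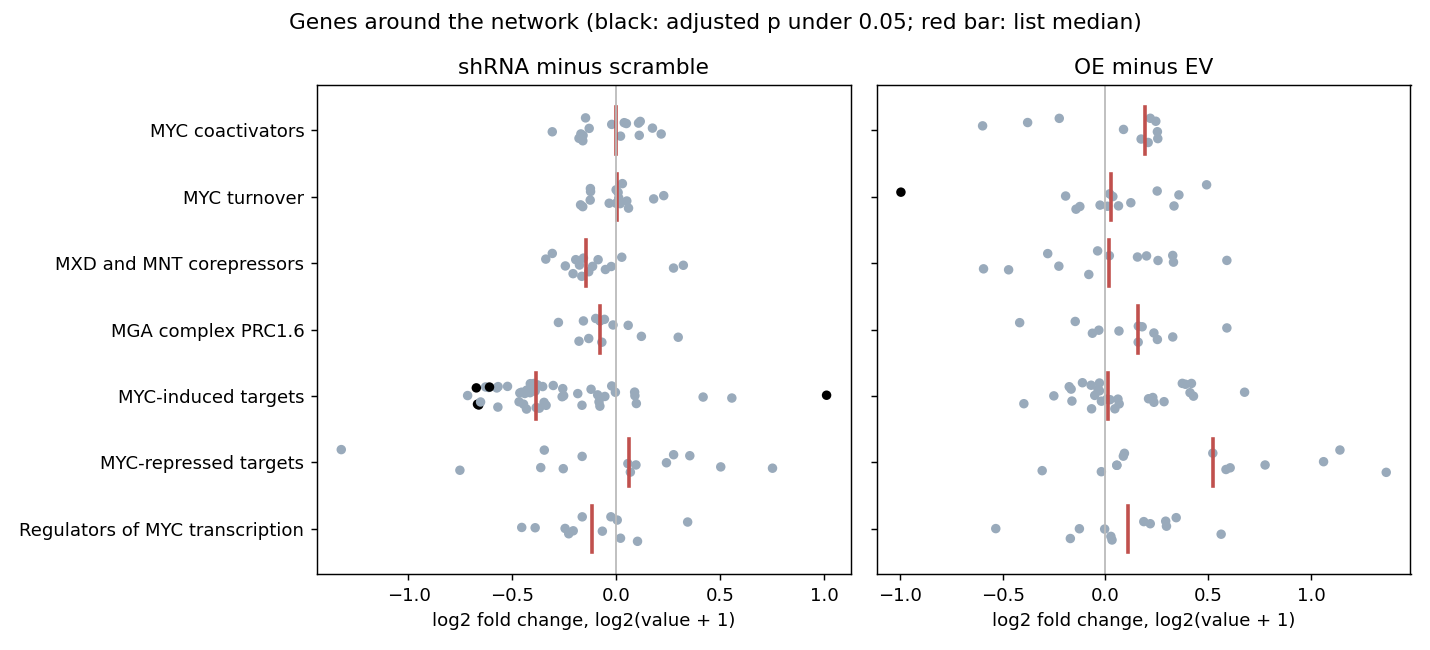
Log2 fold changes of single genes (points) in 7 lists around the network, shRNA minus scramble on the left and OE minus EV on the right, with different horizontal scales. Black points passed limma's test, red bars are list medians, and genes listed at 0 in any OE or EV library are not drawn; the MYC-induced list is shifted to -0.39 in the knockdown arm.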

How the data were processed

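RNA-seq abundances of 11 ARP1 libraries came in 2 tables. The submitters' processing notes name TopHat, with no version, and hg19. How abundances were computed and which genes were kept is not stated. The deposited values are recorded here as FPKM, although no header says so; RPKM or TPM would look alike. The p-value columns are the authors' own, per the file headers, from a test that is not stated. Counts are not given. Among low-valued genes, 0.794 to 3.17% shared a most common ratio between 2 libraries, too few to recover reads, so depth is unknown and no counting interval was made.

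Each table was analysed alone as log2(value + 1). Genes at 1 or more in at least 3 (knockdown) or 2 (overexpression) libraries were tested with limma-trend and robust variances (limma 3.58.1, R 4.3.3). Tests were two-sided, p was adjusted by Benjamini-Hochberg across the genes tested, and the threshold was 0.05; SE and 95% intervals are limma's. The code was tested on simulated data. Figures and tables used Python 3.11.15, pandas 2.3.3, numpy 2.4.6 and matplotlib 3.10.9. Of the knockdown symbols, 24 had been turned into dates; these stayed in the fit unnamed.

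Equal replicate numbers in the knockdown arm deviated together (correlations 0.341, 0.270 and 0.273, other pairs -0.277 to 0.0936). They were treated as pairs in an alternative fit, the replicate block. The pairing comes from the data, and the main fit has no block. Named genes were the 10 network genes, PHF19, the members of 9 lists with the smallest p or past the threshold, and the 5 genes most like MYC. A subset of these is described, and LDHA, SLC1A5, DNPH1, KLF2 and IRF4 (knockdown) and NPM1 were added after their values were seen. Network genes and lists were chosen with earlier results of these data known.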

Additional observations from a re-analysis of the deposited data

How the results depend on the processing

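The tables were refitted with quantile or median-of-ratios scaling, without a low-value filter or with one at 5, with a pseudocount of 0.1 or 0.5, without limma's trend and robust variances, with each library left out, with the replicate block in the knockdown arm, and, in the overexpression arm, leaving out genes listed at 0. Of the network genes' alternative values in both arms, 241 kept their side of the threshold and 1 did not, MXD3 without scramble replicate 1. As MXD3 alone had passed, most of these values only stayed uncalled. In the knockdown arm the sign turned in 5 of 13 alternatives for MXD1 and 3 of 14 for MGA. In the overexpression arm it turned in 3 of 13 for MAX and 1 of 12 for MXD1. Other network genes kept their sign. The number of network genes past the threshold was 0 to 1 of 10 with a library left out in the knockdown arm and 0 in the overexpression arm. Over all genes, the knockdown count of 601 became 269 with no filter and 1295 with the replicate block, and 54 to 629 with a library left out. It was 285 and 180 without shRNA replicate 2 and 3, and 54, 58 and 164 without scramble replicate 1, 2 and 3. Higher and lower calls were 407 and 187 after median-of-ratios scaling. The overexpression count of 94 became 36 with a filter at 5, 61 with a pseudocount of 0.1, and 107 to 350 with a library left out, 148 without OE replicate 1 and 350 without EV replicate 5. Without genes listed at 0 limma called 0, with 1201 at an unadjusted p under 0.05. The cause of these changes was not tested. The replicate block changed no call of a network gene. The calls given above as changed by it are of PHF19 and of genes outside the network. Alternatives for genes outside the network were added after seeing the data. With a lone OE library, it is assumed to vary like the EV libraries. Depth is unknown, and 2 or 3 libraries a group limit what could be called.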

Other observations

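EV replicate 5 differed from the other EV libraries in several genes tied to the network. TXNIP was listed at 128 there, against 14.0 and 11.3 in EV replicates 3 and 4, while OE libraries had 70.1 and 74.2. NDRG1, often counted as MYC-repressed, was at 66.2 in EV replicate 5 and at 11.2 and 23.4 in EV replicates 3 and 4, with 66.9 and 71.2 in OE libraries. MXI1 was also highest in EV replicate 5 within the EV group. Without EV replicate 5 the log2 fold change of TXNIP was 2.42 (limma adjusted p = 0.0144), against 1.34 with it. EV replicate 5 is described here because of values such as this one, so its removal is no test of TXNIP. Leaving it out also raised the calls over all genes from 94 to 350.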
